A study of Drosophila melanogaster with 6 samples.

Results

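The RNA newly made by all cells of the Drosophila larval carcass was described from the 2 libraries of 5-ethynyluridine-tagged RNA (ref-RNA), chosen by their sample type out of the 6 libraries of the series. The larvae carried UAS-CD:UPRT, a transgene for the fusion of cytosine deaminase and uracil phosphoribosyltransferase, with no Gal4 to switch it on. Larvae labelled early L3 ate food with 1 mM 5EUd for 12 h, from 72 to 84 h after hatching. The carcass was then dissected with the central nervous system taken out, and 20 μg of total RNA from 25 to 30 pooled carcasses entered each purification. The 2 mock-tagged libraries, from larvae that were given neither analog and passed through the same purification, are set beside ref-RNA as background. The remaining 2 libraries hold RNA tagged in sensory neurons and are not used here. The labels number the 2 ref-RNA libraries as replicates, and the study's methods describe a separate feeding for each.

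5EUd is a uridine analog that cells build into RNA as they transcribe it, without need of the transgene. The ethynyl group lets the labelled RNA be coupled to biotin and caught on streptavidin beads, so that the capture favours RNA made while the analog was present. The larval body wall is a sheet of epidermis under a chitin cuticle, lined by large multinucleate muscles in which thick filaments of myosin slide along thin filaments of actin. Motor axons end on these muscles at glutamatergic junctions, and sensory neurons spread their dendrites beneath the epidermis.

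Levels are given as TPM, the transcripts of a gene among a fixed total of transcripts in a library, summed over the annotated transcripts of each gene. TPM is scaled by transcript length, which puts long and short transcripts on 1 scale, and it adds up to the same total in each library. Whether the RNA of different genes was tagged and captured alike was not tested. Ratios between genes are therefore ratios of captured RNA. TPM keeps no read depth, so a level is judged by its spread between the libraries, with both values given as replicate 1 and replicate 2. The table has 14240 genes, and a blank was read as listed at 0. In ref-RNA 11061 genes were above 0 in at least 1 library and 9250 in both. Of these 8368 had at least 1 TPM in both libraries, 810 at least 100 TPM and 86 at least 1000 TPM. Another 3179 genes were listed at 0 in both.

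The libraries ranked genes alike, with a Pearson r of 0.918 and a Spearman rho of 0.894 on log2(TPM + 1) across genes, which are not independent replicates. Among the 920 genes whose mean reached 100 TPM, 802 (87.2%) lay within 1.5-fold of each other. The 2 libraries stood apart in fat body RNA. The fat body, the larval organ of fat storage and serum protein synthesis, was marked by 9 genes that held 1.56% of all TPM in replicate 1 and 5.48% in replicate 2, a 3.52-fold difference. All 9 were higher in replicate 2. In bulk RNA more cells of a type and more RNA per cell cannot be told apart.

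The larval serum protein genes led this difference. Lsp1gamma had 4615 and 15596 TPM, Lsp1beta 3413 and 12725 TPM, and Lsp2 2124 and 8623 TPM. Lsp1alpha had 1573 and 6222 TPM and the fat body protein gene Fbp2 752 and 2935 TPM. The apolipoprotein gene apolpp had 2769 and 8236 TPM. Replicate 2 was the high library for each of these storage and carrier genes. Only Idgf4, a chitinase-like growth factor, was nearly level at 284 and 290 TPM. Of the 920 abundant genes, 35 were over 2-fold higher in replicate 2 and 7 in replicate 1. The 35 included 6 of the fat body list and 26 genes in no list, among them Obp99b at 459 and 1314 TPM and Gnmt, glycine N-methyltransferase, at 60.5 and 307 TPM. CG33307 (40.4 and 207 TPM) and CG6910 (66.4 and 247 TPM) were also among the 10 genes furthest apart. The histone pseudogene His-Psi:CR31754 had 214 TPM in replicate 1 and was listed at 0 in replicate 2.

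**Figure D1:**
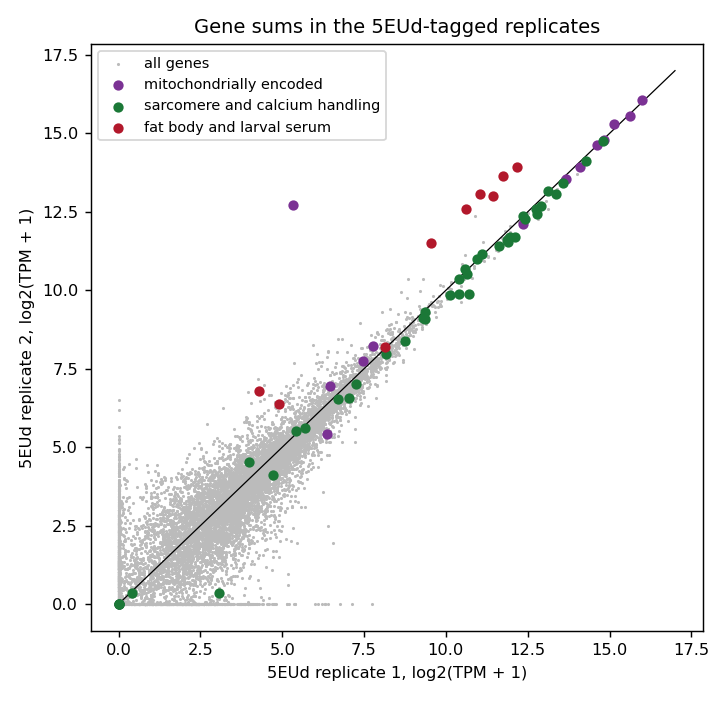
Each grey point is a gene, at its log2(TPM + 1) in 5EUd replicate 1 (x axis) and replicate 2 (y axis), with the line of equality. The mitochondrially encoded and the sarcomere and calcium genes lie along the line apart from mt:ATPase8, mt:ND4L and Act88F, and all 9 fat body genes lie above it, Idgf4 by the least.

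Ref-RNA was concentrated in few genes. The 10 most abundant genes of each library held 31.5% and 31.2% of its TPM, the 100 most abundant 63.9% and 65.3%, and 33 and 32 genes were enough to hold 50% of it. Genes encoded in the mitochondrial genome made up 24.2% and 25.0%. Genes of muscle made up 15.4% and 13.8%, glycolysis and arginine kinase 3.97% and 3.80%, nuclear genes for mitochondrial proteins 2.57% and 2.37%, translation 2.29% and 2.60%, and epidermis and cuticle 2.62% and 2.18%. Neuron genes held 0.128% and 0.106% and glia genes 0.0133% and 0.0165%. Translation, the nuclear mitochondrial genes and the epidermis could not be put in an order, because their ranges over the 2 libraries overlapped. The 13267 genes in no list held 36.7% and 35.3%.

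**Figure D2:**
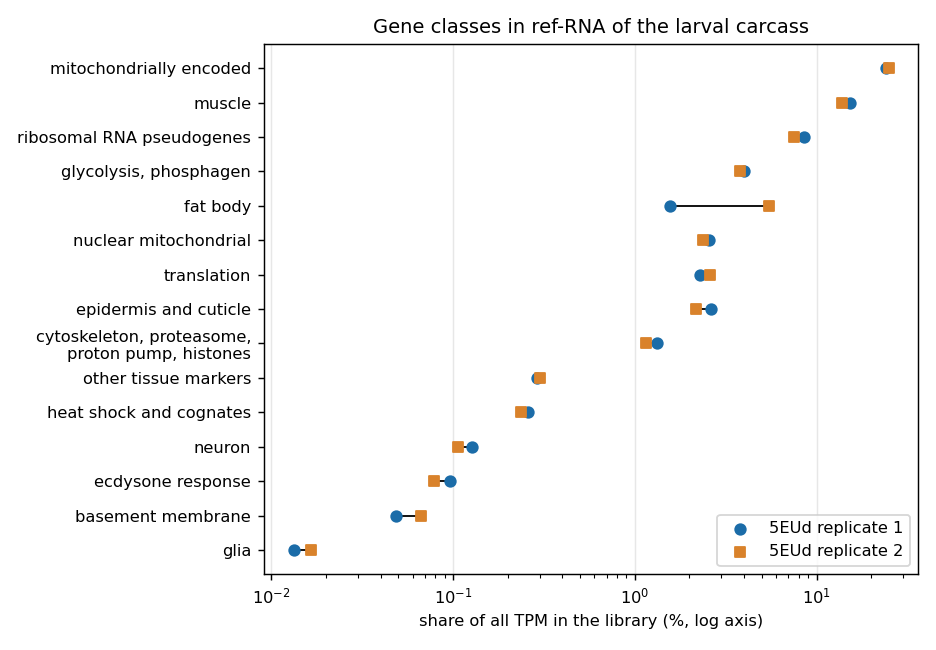
Share of all TPM (x axis, percent, log axis) held by each class of genes in 5EUd replicate 1 (circles) and replicate 2 (squares), joined by a line. The classes span from 24.2% and 25.0% for mitochondrially encoded genes to 0.0133% and 0.0165% for glia, and the fat body is the class whose replicates lie furthest apart.

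A further 8.53% and 7.56% of the TPM was listed under 23 pseudogenes of ribosomal RNA. The study depleted ribosomal RNA during library preparation, so this is what remained and not its share of the captured RNA. Reads of repeated ribosomal RNA copies may be shared among the pseudogenes, so their values are reported as a sum. The highest were 18SrRNA-Psi:CR45861 at 25332 and 24334 TPM and 28SrRNA-Psi:CR45862 at 17826 and 16329 TPM. In mock-RNA the same copies held 11.9% and 28.1%.

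Mock-RNA gave the RNA that came through the beads without a tag, as a share of its own library. Of 9716 genes whose ref-RNA mean reached 1 TPM, 8216 (84.6%) were higher in both 5EUd-tagged libraries than in both mock-tagged libraries, and 6883 were listed at 0 in both mock-tagged libraries. With 2 libraries against 2, an exact permutation test cannot give a two-sided p below 0.333, so no p is given. At a minimum of 10 TPM in place of 1 TPM, that 84.6% over all genes became 92.6%. The count was 54 of 59 tested muscle genes (91.5%), 148 of 169 mitochondrial genes (87.6%) and 80 of 101 epidermis genes (79.2%). It was 22 of 30 neuron genes (73.3%) and 84 of 133 translation genes (63.2%). The listed muscle genes had a median of 238 TPM, and neither the muscle nor the mitochondrial share was above 92.6%. Because TPM is a share of a library, a gene can hold a large share of mock-RNA while the amount of RNA is small. The study describes far fewer mapped reads for mock-RNA than for ref-RNA, and the mock-tagged libraries listed 2178 and 1812 genes above 0 against 9942 and 10369 in ref-RNA. A mock value of 0 may thus be a gene that was not sampled, and the share of genes listed at 0 in both mock-tagged libraries fell from 89.5% of those with 1 to 10 TPM in ref-RNA to 24.3% of those with 100 to 1000 TPM. The counts above mock-RNA given here and for the lists that follow therefore depend on level and depth, and the part of depth in them was not tested.

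Muscle was the largest set of nuclear genes described. Its 64 listed genes include 37 with at least 100 TPM and 21 with at least 1000 TPM in both libraries, and 4 listed at 0 in both. The thick filament list summed to 51635 and 45815 TPM and the thin filament list to 64201 and 59309 TPM, so the thin filament sum was higher in both libraries.

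Act57B, a muscle actin of the larval body wall on chromosome 2R (20944021 to 20946431, BDGP6.54), was the most abundant nuclear gene with 28361 and 27608 TPM. Its mock-tagged libraries had 3091 and 27668 TPM, so the mock range reached the ref-RNA range. Act87E, the other abundant muscle actin, had 8977 and 9233 TPM, against 136 and 185 TPM in mock-RNA. Act57B had 3.16 and 2.99 times the TPM of Act87E, and 22.2 and 21.7 times that of the cytoplasmic actin Act5C, which had 1280 and 1272 TPM.

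The actin genes known from adult muscles were low. Act88F, the actin of the indirect flight muscles, had 7.39 and 0.286 TPM, and Act79B, known from adult leg and other tubular muscles, had 0.322 and 0.272 TPM. Other flight muscle genes were listed at 0 in both libraries, namely fln (flightin), TpnC4, the main troponin C of flight muscle, and Zasp67. Of the listed muscle genes, bin (biniou), a transcription factor of visceral muscle, was also listed at 0.

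On the thin filament, tropomyosin and troponin form the calcium switch. Troponin I, encoded by wupA, had 7724 and 6538 TPM, and troponin T, encoded by up, had 3173 and 2742 TPM, a ratio of 2.43 and 2.38. Of the troponin C genes, TpnC73F had 5445 and 4987 TPM, TpnC47D 1348 and 952 TPM, TpnC25D 132 and 93.5 TPM and TpnC41C 25.3 and 16.1 TPM. No 2 of these 4 genes overlapped between libraries. The tropomyosin genes Tm1 (4451 and 3329 TPM) and Tm2 (3931 and 3252 TPM) overlapped, with a ratio of 1.13 and 1.02.

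The thick filament is built from myosin heavy chain, its light chains and filament core proteins. Mlc1, the alkali light chain gene, led with 19930 and 17939 TPM. Myofilin (Mf) followed with 12236 and 10980 TPM and the regulatory light chain gene Mlc2 with 10592 and 8670 TPM. Mhc, the single muscle myosin heavy chain gene of the fly, had 6906 and 6172 TPM, and paramyosin (Prm), a rod protein of the filament core, 1971 and 2052 TPM. Mlc1 was thus 2.89 and 2.91 times the level of Mhc, and Mlc2 was 1.53 and 1.40 times. In mock-RNA Mhc had 5436 and 3767 TPM, below both ref-RNA values by a small margin, whereas Mlc1 had 414 and 664 TPM.

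**Figure D3:**
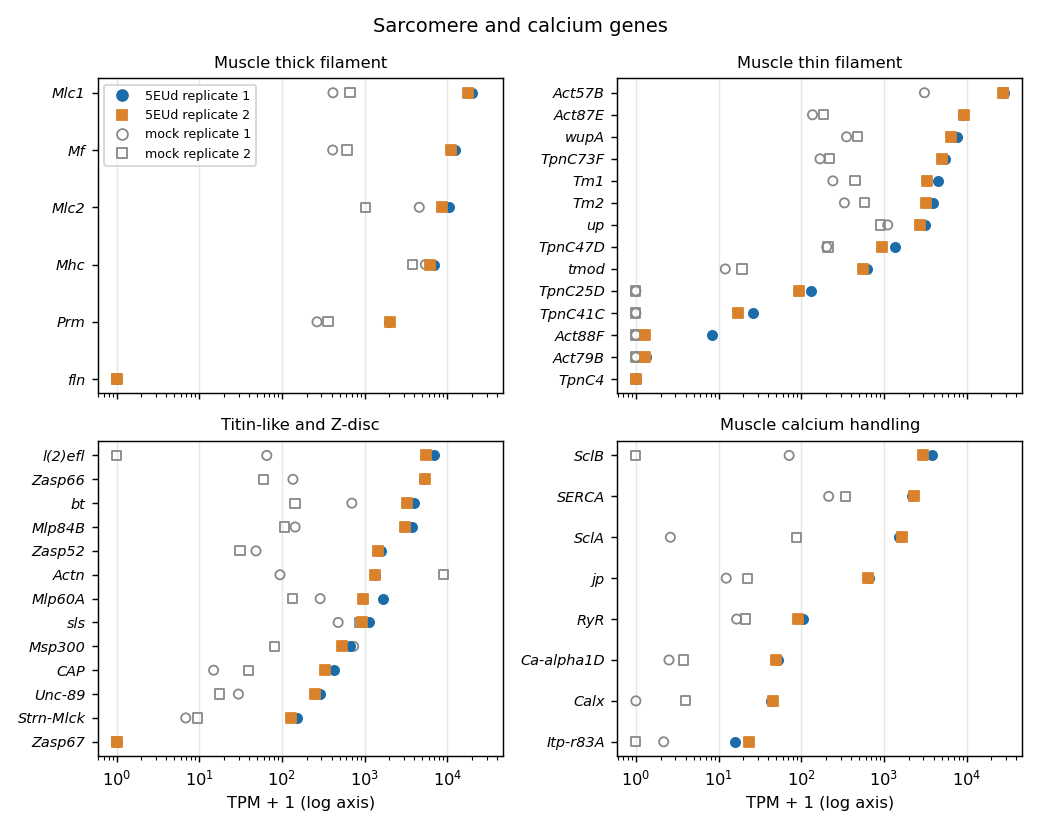
Level of each thick filament, thin filament, titin-like and Z-disc, and calcium handling gene as TPM + 1 (x axis, log axis), with 5EUd replicates filled and mock replicates open. Ref-RNA values lie to the right of both mock values for most genes, with Act57B, Actn and Msp300 among the exceptions, and the flight muscle genes fln, TpnC4 and Zasp67 lie at the left edge.

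Genes of the Z-disc and of the elastic filaments formed the next tier. l(2)efl, a small heat shock protein gene, had 6991 and 5574 TPM, and Zasp66, which encodes a PDZ domain protein of the Z-disc, 5205 and 5335 TPM. The titin-like genes were lower, with bt (projectin) at 4010 and 3290 TPM and sls (Sallimus) at 1122 and 932 TPM, a ratio of 3.57 and 3.53. The muscle LIM protein gene Mlp84B overlapped bt at 3753 and 3086 TPM. Actn, the alpha-actinin gene, had 1351 and 1324 TPM in ref-RNA but 93.8 and 8911 TPM in mock-RNA, so its TPM was not above both mock values.

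Calcium is released from the sarcoplasmic reticulum to start contraction and pumped back to end it. The pump gene SERCA had 2179 and 2286 TPM. The sarcolamban genes SclB (3803 and 2998 TPM) and SclA (1540 and 1645 TPM), which encode micropeptides that act on that pump, together had 2.45 and 2.03 times its TPM. Of the TPM of SclA, 99.7% and 100% lay in 2 transcripts whose values are the same as those of SclB transcripts in both libraries, as in an equal split of shared RNA, so the levels of the genes cannot be told apart. Junctophilin (jp) had 662 and 634 TPM and the release channel RyR 103 and 91.3 TPM. All 8 calcium handling genes were above both mock values, beside 84.6% of all genes tested and 92.6% of those with at least 10 TPM.

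The regulators of muscle were far lower than the proteins of the filaments. The RNA-binding protein genes mbl (muscleblind) and how (held out wings) had 478 and 377 TPM and 447 and 357 TPM, and overlapped. Mef2, the transcription factor that drives muscle differentiation, had 230 and 182 TPM. Hand had 30.3 and 38.2 TPM and nau (nautilus) 8.51 and 11.0 TPM. The attachment genes for integrin adhesion were led by mys (the beta integrin) at 180 and 174 TPM, if (inflated, an alpha integrin) at 164 and 138 TPM and rhea (talin) at 125 and 114 TPM. The other alpha integrin listed, mew, had 19.1 and 14.0 TPM, and Tsp (thrombospondin) had 4.08 and 1.44 TPM. The attachment list held 1.18% and 0.00826% of the TPM in mock-RNA, against 0.0762% and 0.0700% in ref-RNA. Of its 10 genes, all tested, 8 were above both mock values, beside 84.6% of all genes tested.

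Genes known from the muscle side of the neuromuscular junction were detected as well. All 6 listed postsynaptic genes were above both mock values, beside 84.6% of all genes tested and 92.6% of those with at least 10 TPM. The scaffold gene dlg1 (discs large) had 280 and 298 TPM and held 66.8% of the list. The libraries hold RNA of all carcass cells, and which cells made the dlg1 RNA was not tested, so the list does not measure muscle alone. The glutamate receptor subunit genes followed in the order GluRIID (48.9 and 40.7 TPM), GluRIIE (46.9 and 33.4 TPM), GluRIIC (26.2 and 26.5 TPM), GluRIIA (21.1 and 24.5 TPM) and GluRIIB (8.58 and 10.7 TPM). GluRIID and GluRIIE overlapped between libraries, and GluRIIB was below the other subunits in both.

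Genes of the glycolysis and arginine kinase list were abundant. Ald, the aldolase gene, had 12017 and 12149 TPM, although its mock values were 20952 and 410 TPM. Argk, which encodes the arginine kinase that buffers ATP, had 10025 and 9085 TPM against 431 and 689 TPM in mock-RNA. Of the glyceraldehyde-3-phosphate dehydrogenase genes, Gapdh2 had 5851 and 5637 TPM and Gapdh1 2068 and 2029 TPM. Enolase (Eno) had 3154 and 2897 TPM and lactate dehydrogenase (ImpL3) 2166 and 2204 TPM. All 14 genes of this list had over 100 TPM in both libraries, and the lowest was hexokinase A (Hex-A) at 134 and 122 TPM. Glycogenin, which primes glycogen, had 4013 and 4242 TPM and belongs to no list.

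Mitochondrially encoded genes were the most abundant of all, and they include the 4 highest genes of ref-RNA. mt:CoIII and mt:CoI, subunits of cytochrome c oxidase, had 65451 and 68040 TPM and 50342 and 48505 TPM. mt:ND1, a subunit of complex I, had 35709 and 40119 TPM and mt:Cyt-b, the cytochrome of complex III, 28941 and 28038 TPM. The complex I genes mt:ND5 (25218 and 25533 TPM) and mt:ND4 (13056 and 11951 TPM) also ranked among the most abundant. Members of the same complex differed widely, with mt:ND2 at 87.9 and 122 TPM and mt:ND4L at 81.8 and 41.5 TPM. mt:ND4L had 229 TPM in 1 mock-tagged library, above its ref-RNA values.

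mt:ATPase8 gave the largest gap between libraries of any abundant gene listed above 0 in both. mt:ATPase8 had 39.4 and 6682 TPM, whereas mt:ATPase6 had 17562 and 15649 TPM. The genes overlap on the mitochondrial genome, mt:ATPase8 lying at 3907 to 4068 and mt:ATPase6 at 4062 to 4736, and their sum was 17601 and 22331 TPM. The part of the overlap in this gap was not tested.

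The nuclear subunits of the same respiratory complexes were much lower. The mitochondrially encoded sum was 13.2 and 14.9 times the sum of the nuclear oxidative phosphorylation genes. Of these, ATPsynC, the proteolipid ring subunit of ATP synthase, had 3851 and 3296 TPM, with 10313 TPM in 1 mock-tagged library, and ATPsynbeta, the catalytic subunit, had 1607 and 1393 TPM. The cytochrome c gene Cyt-c-p had 863 and 802 TPM and the complex III gene UQCR-11 863 and 700 TPM. The ADP/ATP carrier gene sesB led the list of the citric acid cycle and carriers with 3137 and 2941 TPM.

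Proteins of the mitochondrial ribosome lay at the low end of the organelle. Of 73 genes, 65 had at least 1 TPM in both libraries, the median was 15.1 TPM, and mRpS5 was highest at 153 and 205 TPM. The complex I subunits had a median of 71.1 TPM over 40 genes. Among the members listed at 0 were genes named as relatives of a subunit, such as ND-20L, COX7AL and ATPsynGL.

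**Figure D4:**
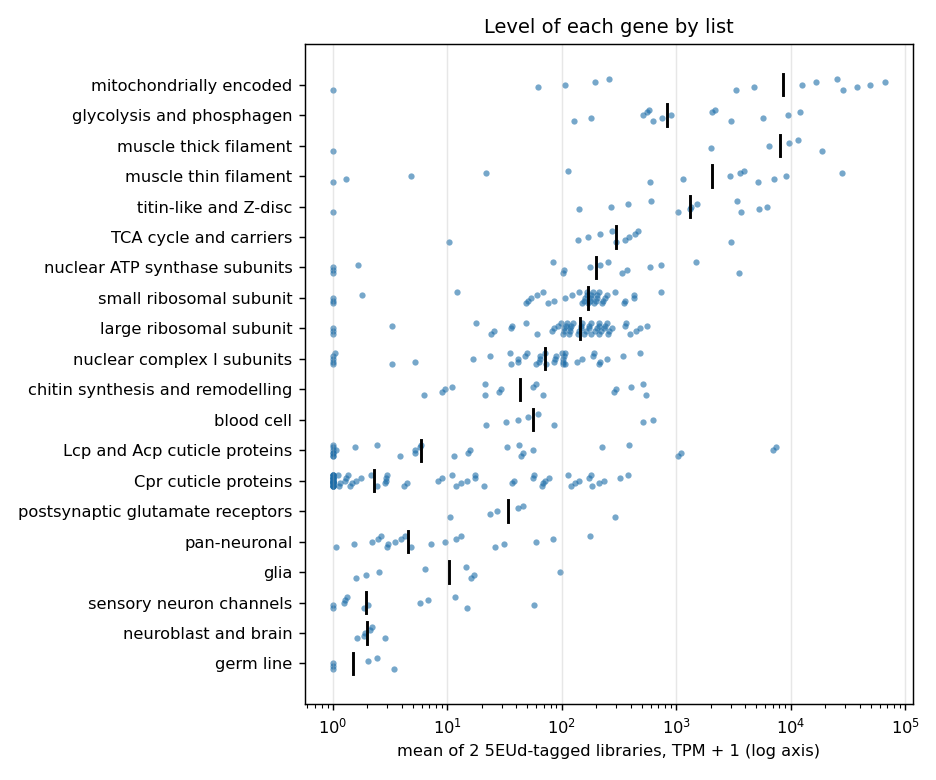
Mean level of each gene over both 5EUd-tagged libraries as TPM + 1 (x axis, log axis), by list, with a bar at the median of the list. Mitochondrially encoded and thick filament genes have the highest medians of the lists drawn, the ribosomal protein lists have medians of 144 and 168 TPM, and cuticle protein genes spread from listed at 0 to 7474 TPM.

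Genes of translation ranged widely in level. The median was 144 TPM over 54 genes of the large ribosomal subunit and 168 TPM over 40 of the small subunit, and the large subunit list summed to 1.28 and 1.23 times the small subunit list. RpS3A was the highest ribosomal protein gene at 717 and 755 TPM, and RpL5 (476 and 625 TPM), RpL10 (369 and 604 TPM) and RpL15 (451 and 434 TPM) were the highest of the large subunit, with RpL10 overlapping both others. The elongation factor eEF1alpha1, which brings aminoacyl-tRNA to the ribosome, had 2228 and 2978 TPM, whereas its paralog eEF1alpha2 had 4.51 and 6.18 TPM. The scaffold initiation factor eIF4G1 had 499 and 562 TPM.

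Many ribosomal protein genes were not above both mock values in TPM, which is a share of a library and not an amount of RNA. Of the tested genes, 22 of 51 for the large subunit and 19 of 36 for the small subunit were above both mock values, against 84.6% of all genes. RpS7, for example, had 185 and 240 TPM in ref-RNA and 25307 and 401 TPM in mock-RNA. Initiation factors differed from the ribosomal proteins in this measure, with 33 of 36 tested genes above both mock values.

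The epidermis was seen chiefly through larval cuticle proteins. Lcp4 (2R, 8437647 to 8438495) had 8833 and 6115 TPM and Lcp1 (2R, 8430115 to 8431243) 7343 and 6802 TPM, and their ranges overlapped. Lcp1 had 67.6 and 122 TPM in mock-RNA, but Lcp4 had 4039 and 146063 TPM, the latter far above ref-RNA. Lcp65Ab1 had 1422 and 792 TPM, Lcp2 909 and 1163 TPM and Lcp9 422 and 352 TPM. Lcp1 and Lcp2, close relatives whose reads may be shared, differed 8.08-fold and 5.85-fold.

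The other cuticle families had lower sums. Of 70 Cpr genes, which carry the Rebers and Riddiford chitin-binding domain, 46 were above 0 in at least 1 library, beside 77.7% of all genes. Of 36 tested, 32 were above both mock values, beside 84.6% of all genes tested. The list summed to 2844 and 2738 TPM, and its highest gene was Cpr65Ax2 at 409 and 355 TPM, which was below its mock values of 1041 and 1114 TPM. Of 26 Tweedle genes 16 were listed at 0 in both libraries, and of 24 Osiris genes 18, beside 22.3% of all genes. The Tweedle list summed to 59.4 and 105 TPM and the Osiris list to 7.79 and 2.54 TPM. The Tweedle list held 4.01% and 0.0631% of the TPM in mock-RNA, against 0.00594% and 0.0105% in ref-RNA. Of 6 Tweedle genes tested, 2 were above both mock values, beside 84.6% of all genes tested. Genes of hardening and pigment were also low, with ple (tyrosine hydroxylase) at 17.4 and 20.7 TPM and Ddc (dopa decarboxylase) at 4.26 and 2.19 TPM, and y (yellow) was listed at 0.

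Genes that organise chitin were present throughout. The chitin deacetylase genes verm (vermiform) and serp (serpentine) had 569 and 526 TPM and 288 and 301 TPM. The chitin-binding proteins obst-A and obst-E had 537 and 478 TPM and 526 and 279 TPM, and verm, obst-A and obst-E could not be put in an order. The chitin synthase gene kkv (krotzkopf verkehrt) was lower, at 24.6 and 15.9 TPM, with mock values of 4.42 and 24.0 TPM. All 16 genes of this list had at least 1 TPM in both libraries. The epidermal transcription factor genes vvl, grh (grainy head) and ovo had 55.0 and 42.2 TPM, 42.2 and 29.0 TPM, and 23.5 and 17.9 TPM.

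The neuron gene lists were a small part of ref-RNA. Of the 1278 and 1063 TPM of their 41 genes, 699 and 585 TPM lay in transcription factor genes that pattern dendrites. Several of those factors act in other tissues too, so the sum does not measure neurons alone. The 20 pan-neuronal genes, all above 0 in at least 1 library, summed to 477 and 389 TPM. Syx1A, the syntaxin of synaptic vesicle release, held 40.6% of that at 184 and 168 TPM. The chaperone gene Csp followed at 101 and 66.3 TPM and elav, an RNA-binding protein used as a neuron marker, at 63.1 and 54.8 TPM. Which cells made the Syx1A and Csp RNA was not tested, so the pan-neuronal sum may not measure neurons alone either. The TPM of Mhc was 109 and 113 times that of elav.

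Genes of narrower synaptic function were lower still. The sodium channel gene para had 3.98 and 3.70 TPM, the active zone gene brp (bruchpilot) 2.89 and 2.04 TPM and the synaptobrevin gene nSyb 11.9 and 5.37 TPM. For brp (27.0 and 80.4 TPM), Syt1 (152 and 53.8 TPM) and fne (20.7 and 23.6 TPM) both mock values were above both ref-RNA values. Of the pan-neuronal genes tested, 11 of 18 were above both mock values, beside 84.6% of all genes tested. Transmitter genes were near the floor, with VGlut at 0.319 and 0.727 TPM and ChAT at 0.134 and 0.0127 TPM.

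Sensory channels of the body wall were led by Piezo, a mechanically gated channel, at 58.4 and 55.4 TPM. The potassium channel gene SK had 15.9 and 11.6 TPM, pain (painless) 11.2 and 10.3 TPM, ppk (pickpocket) 6.79 and 4.80 TPM and ppk26 7.67 and 1.97 TPM. Channels of chordotonal organs were at or near 0, with nan (nanchung) at 0 and iav at 0 and 0.532 TPM. The channel gene nompC was also low, at 1.01 and 0.760 TPM, and the receptor gene Gr28b was listed at 0. The transcription factor genes that pattern dendrites were led by lola at 526 and 424 TPM, jim at 95.6 and 88.8 TPM, ab (abrupt) at 40.7 and 39.8 TPM and ct (cut) at 31.5 and 28.2 TPM. kn (knot) had 3.17 and 2.44 TPM, and the proneural genes ato and cato were listed at 0. Several of these factors act in other tissues too.

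Markers of glia were low apart from Gs2 (glutamine synthetase), which held 64.3% of the list at 92.6 and 98.4 TPM and is also active in other cells. repo, the defining glial transcription factor, had 0.310 and 2.73 TPM, and alrm 5.29 and 5.56 TPM.

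Marker lists of several other tissues had low sums, although a listed 0 can also be a failed estimate, since a core proteasome gene, Prosalpha1, was listed at 0 as well. The 6 genes of the brain and neuroblast list summed to 5.24 and 7.96 TPM, and none exceeded 2.21 TPM. The germ line genes vas, nos and osk were listed at 0, and the list summed to 2.78 and 6.93 TPM. The imaginal disc list summed to 31.9 and 28.1 TPM. Of the salivary gland glue genes Sgs3, Sgs7 and Sgs8 were listed at 0, but Sgs4 had 32.7 and 22.7 TPM, above the median of 15.9 TPM of detected genes. Of the gut digestive enzymes Jon99Ci, Jon99Cii and alphaTry were listed at 0 and Jon25Bi had 27.0 and 8.77 TPM.

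Marker lists of blood cells and oenocytes had higher sums than these, at 1438 and 1425 TPM and at 1170 and 1343 TPM. The crystal cell genes PPO1 (619 and 645 TPM) and PPO2 (514 and 506 TPM), which encode prophenoloxidases, led the blood cell list, and the plasmatocyte gene Hml (hemolectin) had 58.3 and 63.7 TPM. The oenocyte gene Cyp4g1, which makes cuticular hydrocarbons, had 597 and 677 TPM. All 8 blood cell and all 5 oenocyte genes were above both mock values, beside 84.6% of all genes tested and 92.6% of those with at least 10 TPM. Tracheal genes were lower, with pio (piopio) at 26.3 and 21.3 TPM and trh (trachealess) at 18.3 and 9.04 TPM. tin (tinman), a heart gene, was listed at 0.

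The isoforms of each gene were read from the transcript values. These were estimated by pseudo-alignment, and the split between transcripts that differ in little sequence is uncertain. Of 2623 genes with at least 2 listed transcripts and at least 20 TPM, 2009 (76.6%) had the same main isoform in both libraries. In 1754 (66.9%) that isoform held at least 50% of the gene in both. The median share of the main isoform was 80.1% and 77.2%. The same main isoform was named for 83.9% of the 749 genes with at least 100 TPM and for 73.7% of the 1874 genes below that. When transcripts with the same coding exons were joined, 2115 of 2614 placed genes (80.9%) had a protein form of at least 50% in both libraries. Of the placed genes, 1166 have a single annotated protein form, so that form holds all of their TPM. Of the 1448 with more than 1 annotated protein form, 950 had a form of at least 50% in both libraries. The main isoform was the longest annotated transcript in 939 of the 2614 placed genes (35.9%).

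In muscle genes the main isoform held a smaller share. In 23 of 44 muscle genes (52.3%) the main isoform held at least 50% in both libraries, against 14 of 14 glycolysis genes, 63 of 71 mitochondrial genes (88.7%), 73 of 93 translation genes (78.5%), 23 of 29 epidermis genes (79.3%) and 6 of 10 neuron genes. The median share was 58.5% for muscle genes and 93.8% for mitochondrial genes. The muscle genes also have more annotated transcripts, with a median of 6 against 3 for mitochondrial and translation genes. No test of the difference was made.

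Mhc is the clearest case. The gene lies on the plus strand of chromosome 2L (16766566 to 16788766) and has 21 listed transcripts. Mhc-RC was the main one at 2147 and 1918 TPM, 31.1% of the gene in each library, followed by Mhc-RF at 1274 and 1079 TPM, 18.4% and 17.5%. Its coding region holds 5 sets of neighbouring exons of equal length, 16 exons in all, and each transcript uses 1 exon of each set. The TPM of the transcripts that hold each exon was summed. The fly is known to build its muscle myosins from these choices, which fall in the motor domain and the hinge of the protein.

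In 3 of the sets a single exon held most of the RNA. In the third set, of 171 nt, the second exon (2L, 16775683 to 16775853) held 87.6% and 89.1%. In the fifth set, of 79 nt, the second exon (16784251 to 16784329) held 79.7% and 85.2%. In the second set, of 104 nt, the first exon (16771343 to 16771446) held 63.3% and 72.2%. The first set was even, at 49.2% and 50.4% for its first exon and 50.8% and 49.6% for its second. The fourth set, of 118 nt, was spread over 5 exons, with the fourth (16779093 to 16779210) highest at 35.3% and 40.6% and the first lowest at 11.7% and 9.26%. At the end of the gene a coding exon of 81 nt (16788021 to 16788101) was held by 85.2% and 85.6%.

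**Figure D5:**
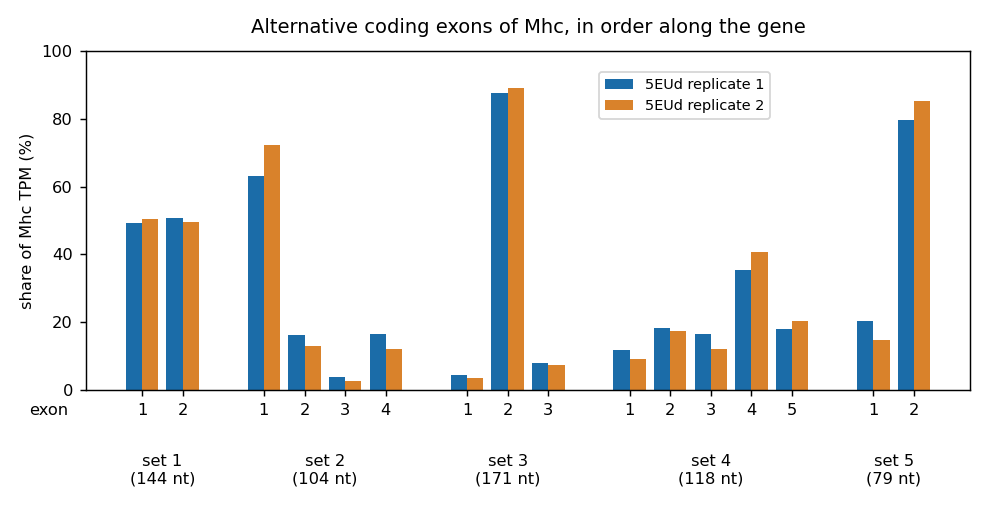
Share of Mhc TPM (y axis, percent) in transcripts that hold each exon of the 5 sets of alternative coding exons, in order along the gene, for both 5EUd replicates. The second exon of set 3 holds 87.6% and 89.1%, while both exons of set 1 are between 49.2% and 50.8%.

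Other sarcomere genes had clear preferences. Paramyosin came almost wholly from the long form, with Prm-RA at 93.0% in both libraries against 6.38% and 6.33% for Prm-RC, which starts inside the gene and encodes a shorter protein. Mlc1-RB, of 929 nt, held 92.6% and 93.8% of Mlc1, and 99.98% and 99.99% of Mlc1 carried the same coding exons. In wupA 1 of the 4 alternative exons of 101 nt (X, 18112562 to 18112662) was in 87.33% and 89.03%. In up 1 of 2 exons of 79 nt (X, 13594285 to 13594363) was in 96.1% and 98.2% of the RNA. In Tm2 1 of 2 exons of 80 nt (3R, 15314528 to 15314607) was in 94.5% and 94.2%.

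Some genes were spread or uncertain. Tm1 has 17 listed transcripts, and Tm1-RJ (1326 and 1501 TPM) and Tm1-RM (1310 and 455 TPM), which encode the same protein, exchanged share between libraries. Their protein form, joined with 2 further transcripts, was steady at 68.4% and 67.8%. bt was divided among bt-RJ (28.4% and 29.0%), bt-RI, bt-RH and bt-RC. Myofilin came from Mf-RQ for 49.43% and 50.02%, and SERCA from SERCA-RI for 56.7% and 56.8%.

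The main isoform was the same in both libraries for 37 of 44 listed muscle genes and differed for 7. Over all genes it was the same for 76.6%, and for 83.9% of those with at least 100 TPM, so the muscle count does not stand apart. The 7 genes were CAP, Msp300, SclB, Strn-Mlck, TpnC25D, if and stck. For stck, stck-RC held 100% of the RNA in replicate 1 and 7.09% in replicate 2, while the gene sum stayed at 101 and 90.4 TPM. All 4 SclB transcripts encode the same protein, so its change of main isoform left the coding exons alike.

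In the epidermis the larval cuticle genes had a pair of transcripts each. Lcp1-RA held 83.3% and 81.9% of Lcp1, and Lcp4-RB 54.1% and 54.3% of Lcp4, in each case with the same coding exons as the other transcript. The main isoform differed between libraries for Cht10, kkv, cora and ovo. Of the neuron genes, Syx1A came only from Syx1A-RC, elav only from elav-RD, and lola was divided among 25 listed transcripts with lola-RF highest at 16.7% and 16.3%. The main isoform of Csp differed, with Csp-RE at 56.7 and 0 TPM and Csp-RC at 44.2 and 45.0 TPM.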

How the data were processed

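The study's library preparation included a depletion of ribosomal RNA, so all shares are of depleted libraries. Reads were trimmed by the authors (Trimmomatic) and assigned with kallisto to the transcripts annotated for BDGP6. The deposited values are TPM per transcript, scaled by transcript length and library total. Versions are not given in the sources used here. The table holds 30828 transcripts. The study gives mapped reads per sample type, fewest for mock-RNA, but TPM does not show the counts behind a value, so no interval is given. Of the table, the columns of the 2 5EUd-tagged and the 2 mock-tagged libraries were used.

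Blanks were read as 0 and TPM was summed by the gene name in the table with Python 3.11.15, pandas 2.3.3 and NumPy 2.4.6. Shares are of the TPM of a library. Positions come from Ensembl release 115 (BDGP6.54), which held 30593 of these transcripts and 14140 of the 14240 genes. Some gene names are older than that release and are kept as in the table. A gene was taken as detected at 1 TPM in both libraries, and isoforms were read in genes of at least 20 TPM. The steps were tested on simulated data.

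The libraries and gene lists were chosen with earlier results of these data known. Family lists were taken by name pattern, and a pattern for small noncoding RNA that matched other genes was dropped. Genes were named from the 30 most abundant, the 5 highest of each list, members listed at 0, the 10 genes furthest apart between libraries and, for isoforms, the 3 highest with at least 2 isoforms and those whose main isoform differed. Not every gene that this rule admits is described. Others named, the replication histones and the rRNA list were chosen after values were seen.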

Additional observations from a re-analysis of the deposited data

How the results depend on the processing

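Shares were recomputed under other scalings. Without the mitochondrially encoded transcripts, muscle genes held a mean of 19.4% of the TPM (14.6% as reported), glycolysis genes 5.15%, nuclear mitochondrial genes 3.28%, translation genes 3.25%, epidermis and cuticle genes 3.18% and neuron genes 0.155%. With the 10 most abundant transcripts left out, mitochondrially encoded genes held 3.10%, glycolysis genes 5.65%, nuclear mitochondrial genes 3.60%, translation genes 3.56%, epidermis and cuticle genes 3.49% and neuron genes 0.170%. In both cases a smaller total raises the other shares. Of the alternatives chosen after seeing the data, leaving out the fat body list gave mitochondrially encoded genes 25.5% and glycolysis genes 4.03%. Leaving out the ribosomal RNA pseudogenes gave mitochondrially encoded genes 26.7%, muscle genes 15.9%, glycolysis genes 4.23% and nuclear mitochondrial genes 2.69%. The fat body fold between replicates was between 3.48 and 3.55 under these and the filters. At a minimum of 10 TPM 4745 genes were detected, against 8368 at 1 TPM. With a limit of 80% in place of 50%, 36.3% of genes had a main isoform, against 66.9%. The other 65 of 85 alternatives moved shares by less than 1 SD between replicates, counts by less than 1.5-fold and the correlation by less than 0.05. With 2 libraries, leaving 1 out always moves a share by less than 1 SD, so those alternatives cannot show that a share is stable. The fat body share was 1.56% in replicate 1 alone and 5.48% in replicate 2 alone. No paired analysis was possible because the results come from 1 sample type and no test. With 2 libraries and TPM alone, a blank, a level under 1 TPM or a split between near-identical transcripts is uncertain.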

Other observations

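Gene groups outside the body wall lists were also read. The vacuolar proton pump list summed to 6423 and 5525 TPM, and Vha16-1, its membrane ring subunit, held 38.6% of the mean sum at 2477 and 2138 TPM. This list held 2.759% and 0.04526% of the TPM in mock-RNA, against 0.6423% and 0.5525% in ref-RNA. Above both mock values were 18 of its 21 tested genes, beside 84.6% of all genes tested. Proteasome subunits summed to 2112 and 1923 TPM, with Prosalpha6 highest at 135 and 132 TPM. Of 48 genes 11 were listed at 0 in both, most of them named as relatives of a subunit, such as Prosalpha3T and Prosalpha6T, but also the core subunit gene Prosalpha1. The constitutive chaperone gene Hsc70-4 was the highest of the heat shock and cognate list at 1035 and 930 TPM. The stress-induced Hsp70Aa was its lowest, at 1.10 and 0.513 TPM. Other heat shock genes lay between, with Hsp26 at 64.7 and 33.3 TPM. Hsp68 was above Hsc70-5 (149 and 138 TPM) with no overlap between libraries.

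Genes of the response to ecdysone, the moulting steroid, were detected in part. The receptor gene EcR had 140 and 108 TPM and its partner usp 28.3 and 16.6 TPM, a ratio of 4.94 and 6.51. EcR-RC, the 1 of 6 transcripts with a coding exon of 52 nt (2R, 6131066 to 6131117), held 72.01% and 63.43% of EcR. br (broad) had 201 and 185 TPM and Eip75B 106 and 95.4 TPM, while Hr3 had 0.781 and 0.00757 TPM and Eig71Ea was listed at 0. The ecdysone response list held 0.07353% and 0.5230% of the TPM in mock-RNA, against 0.09665% and 0.07851% in ref-RNA. Of its 8 tested genes, 7 were above both mock values, beside 84.6% of all genes tested. The septate junction and sodium pump list was led by nrv1 at 327 and 258 TPM and Atpalpha at 202 and 209 TPM. All 13 genes of that list exceeded both mock values, beside 84.6% of all genes tested and 92.6% of those with at least 10 TPM. Of the basement membrane list trol (perlecan) was highest at 144 and 228 TPM, but its mock values were 4167 and 9809 TPM. Cubn, a nephrocyte receptor gene, had 9.58 and 17.4 TPM.

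Leaving out the mitochondrial genome and the ribosomal RNA pseudogenes, the 85 genes of chromosome 4 made up 0.599% of genes and 3.75% and 4.07% of the TPM, led by apolpp, bt and CG1674. apolpp is also one of the genes that set the libraries apart. The 85 genes of the Y chromosome, of which 1 had at least 1 TPM in both libraries, held 0.00157% and 0.00238%. The median transcript length was 1676 nt for genes of 1 to 10 TPM, 2012 nt for 10 to 100 TPM, 1779 nt for 100 to 1000 TPM and 1632 nt from 1000 TPM up, so length did not change in 1 direction with level.

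Replication histone genes, whose messages lack a poly(A) tail, summed to 1874 and 1552 TPM over 111 copies. The copies are nearly identical, and how the total was divided among them is uncertain. Among the most abundant genes in no list were Mp20, a calponin-like muscle gene, at 8540 and 7290 TPM, Pax (paxillin) at 4185 and 3177 TPM, CG43897 at 4014 and 3688 TPM and CG5023 at 3326 and 3275 TPM. CG34166 had 1905 and 5340 TPM and was listed at 0 in both mock-tagged libraries. CG11350 had 3590 and 3815 TPM against 1934 and 28596 TPM in mock-RNA.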
